A study of Cyanidioschyzon merolae strain 10D with 4 samples.

Results

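Nucleus-encoded genes of the light-harvesting antenna were followed in the red alga Cyanidioschyzon merolae strain 10D, a single-celled inhabitant of acidic hot springs, between darkness and blue light. The set holds 5 of the 5100 genes in the authors' deposited table. It was defined by gene identity and by no limit on measured values, but with earlier results of these data known. CMN234C, CMN235C and CMQ142C were taken as genes for chlorophyll-binding Lhcr proteins of photosystem I, and CMO250C and CMP166C as genes for the phycobilisome linkers APCC and CPCC. A reference gene table matched 4 of the 5 by locus tag, all 4 as protein coding, and gave no product names, so these roles come from the definition of the set. All cells were wild type and grown in 2xMA medium. By their titles, 2 libraries represent darkness and 2 represent blue light, which was applied over 30 minutes with an intensity of 15 µmol per m2 and second. The treatment text of the darkness libraries repeats the blue light exposure, so the groups were taken from the sample titles. Red light, which the series title also names, was not analysed here.

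Red algae gather light with 2 kinds of antenna. Lhcr proteins are membrane proteins that bind chlorophyll and carotenoids, sit at photosystem I and pass excitation energy to its reaction centre. Phycobilisomes are large water-soluble complexes on the outer face of the thylakoid membrane, built from bilin-binding phycobiliproteins that linker proteins hold together. APCC-type linkers belong to the allophycocyanin core and CPCC-type linkers to the phycocyanin rods. In red algae most phycobilisome proteins are encoded in the plastid genome, whereas the Lhcr proteins and some linkers are made in the cytosol from nuclear transcripts and imported.

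The deposited values were 1 FPKM value per gene and condition, that is, fragments per kilobase scaled to sequencing depth. By the whole-fragment steps described below, the length counted was not the whole gene but its span less 162 to 173 bp. That shortening weighs most on CMO250C, which spans 385 bp. Ranks, shares and level ratios that set CMO250C beside longer genes depend on it. FPKM is relative to all RNA in a library, so a change in RNA per cell was not measured. The authors tested 4448 of 4796 nuclear genes, and a gene is called changed here at an authors' q-value under 0.05. A spread between libraries was not at hand. An error of each log2 ratio was therefore derived by dividing it by the authors' test statistic, on the understanding that Cuffdiff's statistic is the log ratio over its error. The authors' Cuffdiff p-values did not track that statistic closely. They were 0.37 for CMN235C and 0.39 for CMP166C, at statistics of 0.85 and -0.49. The implied error therefore cannot be taken as the spread behind the authors' calls. The median of that implied error over the 4442 tested nuclear genes with a value was 0.31 on the log2 scale. Low values in the table fell on whole-fragment steps of 2 libraries per condition, which put the depth behind each antenna value at 614 fragments at least and 12446 at most, summed over the libraries of a condition. Counting error alone would then be at most 0.058 on the log2 scale for any single antenna value, and the implied errors were at least 2.80 times the counting error of the ratio.

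All 5 antenna genes were among the most abundant nuclear transcripts. In darkness 4 of them lay between 5005 and 6888 FPKM, against a median of 104 FPKM over tested nuclear genes. By level in darkness, CMP166C ranked 4, CMO250C 6, CMQ142C 7, CMN234C 10 and CMN235C 102 among the 4796 nuclear genes. Under blue light CMO250C ranked 12, CMN234C 14, CMQ142C 66, CMP166C 88 and CMN235C 95. Together the 5 genes made up 2.43% of the total FPKM in darkness, compared with 1.18% under blue light. The summed level was 2.05-fold lower, or 1.70-fold lower without CMP166C, whose own ratio did not pass the authors' test. These sums have no replicate check.

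**Figure D1:**
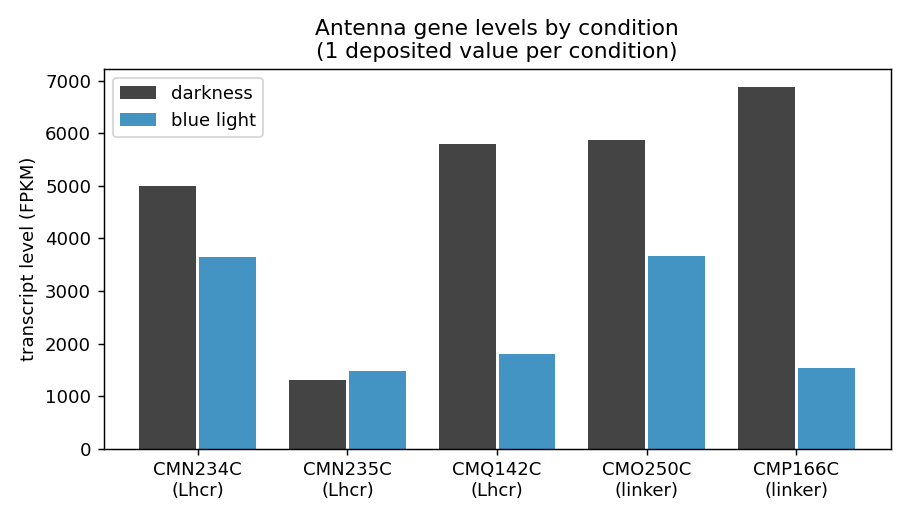
Deposited FPKM of the 5 antenna genes in darkness (grey bars) and under blue light (blue bars), 1 value per condition, drawn without error bars. In darkness 4 genes stand between 5005 and 6888 FPKM and CMN235C at 1308, while under blue light CMN234C and CMO250C are at 3650 and 3673 FPKM and the other 3 lie between 1486 and 1804.

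Lower levels under blue light passed the authors' test for 1 of the 3 Lhcr genes and 1 of the 2 linker genes, CMQ142C and CMO250C. No antenna gene was called higher, and 0 were higher at an unadjusted p under 0.05 in the authors' Cuffdiff test. The 2 falls among 5 genes compare with a background of 26.3% of tested nuclear genes called lower, 27.1% called higher and 53.4% called in either direction. The 92 tested nuclear genes whose mean level was at least that of CMN235C include the 5 antenna genes themselves. Of these 92, 41.3% were called lower and 25% higher. Set against these shares, the number of falls does not mark the antenna genes out. The median log2 ratio of the 5 genes was -0.68, beside -0.021 for all tested nuclear genes and -0.38 for the 92 abundant ones.

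CMQ142C, an Lhcr gene on chromosome 17 from 337673 to 338319, had 5803 FPKM in darkness and 1804 FPKM after blue light (authors' deposited table) and was called lower. The log2 ratio was -1.69 with an implied error of 0.38, a 3.22-fold fall with a Cuffdiff q-value of 0.00088. Of the 3 Lhcr genes it had the highest level in darkness and the intermediate one under blue light.

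CMN234C, an Lhcr gene on chromosome 14 from 578488 to 579158, was listed at 5005 FPKM in darkness and 3650 FPKM in blue light by the authors' deposited table. Its log2 ratio of -0.46, with an implied error of 0.40, did not pass (Cuffdiff q = 0.30). The value under blue light was the highest of the 3 Lhcr genes.

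CMN235C, the third Lhcr gene, lies on chromosome 14 from 579811 to 580472, with 653 bp between the deposited ends of the 2 genes. In the authors' deposited table it was listed at 1308 FPKM in darkness and at 1486 FPKM in blue light. The log2 ratio of 0.18, with an implied error of 0.22, did not pass (Cuffdiff q = 0.46). This was the only antenna gene with a higher value under blue light, by 1.14-fold.

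CMO250C, the gene for the core linker APCC on chromosome 15 from 641283 to 641668, fell from 5880 FPKM to 3673 FPKM after blue light, as the authors' deposited table lists it. The log2 ratio was -0.68 with an implied error of 0.19, a 1.60-fold fall with a Cuffdiff q-value of 0.0082. Its implied error was the smallest of the 5 genes, and this change was called although that of CMP166C was larger in value.

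CMP166C, the gene for the rod linker CPCC on chromosome 16 from 422228 to 423464, had 6888 FPKM in darkness, and the authors' deposited table gives 1528 FPKM for blue light. It was the most abundant of the 5 in darkness and the fourth under blue light. The log2 ratio of -2.17, or 4.51-fold, was the largest of the set and did not pass the authors' Cuffdiff test (q = 0.48). The test statistic of -0.49 corresponds to an implied error of 4.43, which is 14.5 times the median of tested nuclear genes and rank 2 among the 4442. At least 9432 fragments in darkness and 1366 under blue light stood behind the values, giving counting errors of 0.015 and 0.039 on the log2 scale. Whether the libraries of a condition differed for this gene could not be read from the table, and what made the error large was not tested.

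**Figure D2:**
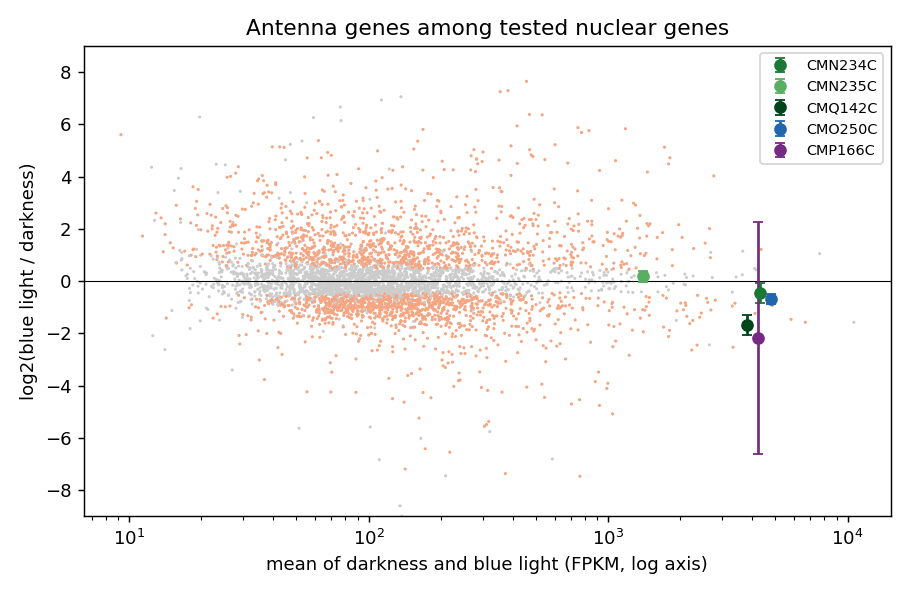
Log2 ratio of blue light over darkness against the mean FPKM of both conditions (log axis) for tested nuclear genes with values above 0 in both conditions, orange where the authors' q-value was under 0.05 and grey otherwise. Large points are the antenna genes with bars of 1 implied error to each side, and the bars of CMP166C (4.43) and CMN235C (0.22) cross 0. Those of CMQ142C (0.38), CMO250C (0.19) and CMN234C (0.40) do not, although CMN234C was not called.

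**Figure D3:**
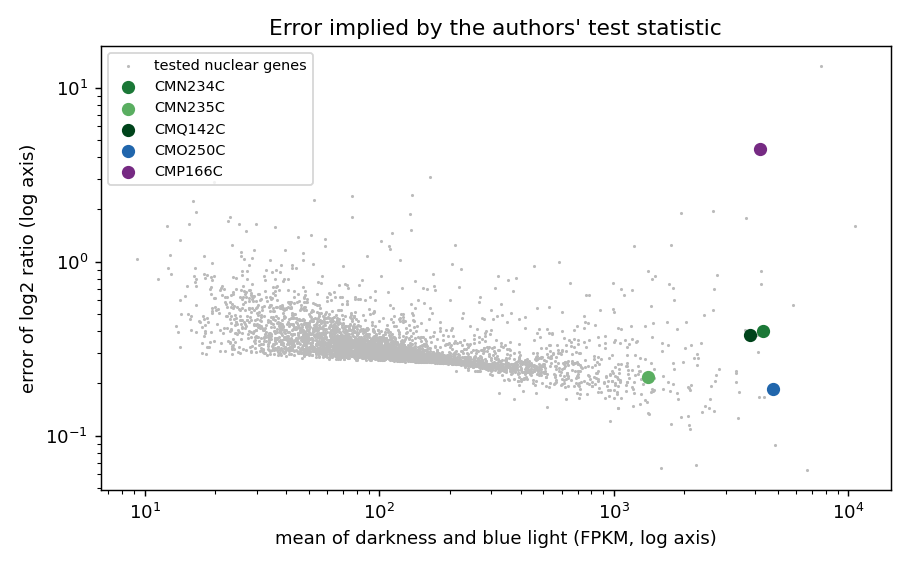
Implied error of the log2 ratio against the mean FPKM of both conditions (both axes log) for 4442 tested nuclear genes, with the antenna genes as large points. CMP166C stands at 4.43, above all but 1 nuclear gene, and the other 4 lie between 0.19 and 0.40.

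The ratios of the 5 antenna genes ranged from -2.17 to 0.18 on the log2 scale. Between the Lhcr genes, the log2 ratio of CMN235C exceeded that of CMQ142C by 1.87, with a combined implied error of 0.44. In darkness CMQ142C had 4.44 times the level of CMN235C, and under blue light 1.21 times. CMN234C and CMQ142C were at similar levels in darkness, with a ratio of 0.86, while under blue light CMN234C had 2.02 times the level of CMQ142C. That difference of 1.23 between their log2 ratios was 2.24 times its combined error. The neighbours CMN234C and CMN235C differed by 0.64 in log2 ratio with a combined error of 0.45, which is 1.41 times that error. These differences are descriptions without a p-value, because the 5 genes were measured in the same libraries and their errors are not independent. The combined errors also rest on implied errors, which cannot be taken as the spread behind the authors' calls.

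Between the linker genes, levels in darkness were close, with CMP166C at 1.17 times CMO250C. Under blue light CMO250C had 2.40 times the level of CMP166C, whose own ratio did not pass the authors' test. The difference of 1.49 in log2 ratio was smaller than its combined implied error of 4.44, and no verdict is drawn from it. CMO250C and CMN234C, a core linker and an Lhcr gene, were nearly equal under blue light, with a level ratio of 0.99. Across both antenna types, the difference between CMQ142C and CMO250C was -1.01 with a combined error of 0.42.

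The make-up of the antenna transcripts followed from these values. Lhcr genes gave 48.7% of the summed FPKM of the 5 genes in darkness and 57.2% in blue light, while the linker genes gave 51.3% and 42.8%. CMN235C went from 5.26% to 12.2% of the sum, CMN234C went from 20.1% to 30.1% and CMO250C from 23.6% to 30.3%. CMQ142C went from 23.3% to 14.9% and CMP166C from 27.7% to 12.6%. These shares have no replicate check, and all of them depend on the values of CMP166C, whose ratio did not pass the authors' test. The Lhcr genes are related in sequence, and how far the authors' alignment divided fragments between similar stretches was not tested.

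Along the chromosomes, the antenna genes, at 1308 FPKM or more in both conditions, lay among less abundant rows. The 3 rows on each side of every antenna gene comprise 24 other rows, of which 23 had a valid test, and the highest value among them in either condition was 922 FPKM. In the authors' test 2 neighbours were higher under blue light, 9 were lower and 12 did not pass, with a median log2 ratio of -0.29, against 27.1% of all tested nuclear genes called higher and 26.3% called lower. No neighbour of CMQ142C, CMO250C or CMP166C was called higher. Both rises flank the Lhcr pair on chromosome 14, and these 2 genes, for which no product name was at hand, are named after their values were seen. CMN233C, from 575154 to 577476 on one side of the pair, rose 7.13-fold by the authors' deposited table, from 68.3 FPKM in darkness to 487 FPKM in blue light, with a Cuffdiff q-value of 0.00021. CMN237C, from 582257 to 583037 on the other side, rose from 32.4 FPKM up to 922 FPKM, or 28.5-fold, with the same q-value of the authors' Cuffdiff test. Neither CMN234C nor CMN235C between them was called. Around CMP166C, 4 of 6 neighbours were called lower and 2 did not pass, with a median log2 ratio of -0.84, beside the same 26.3% called lower over all tested nuclear genes. From so few rows nothing is read as particular to this stretch.

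**Figure D4:**
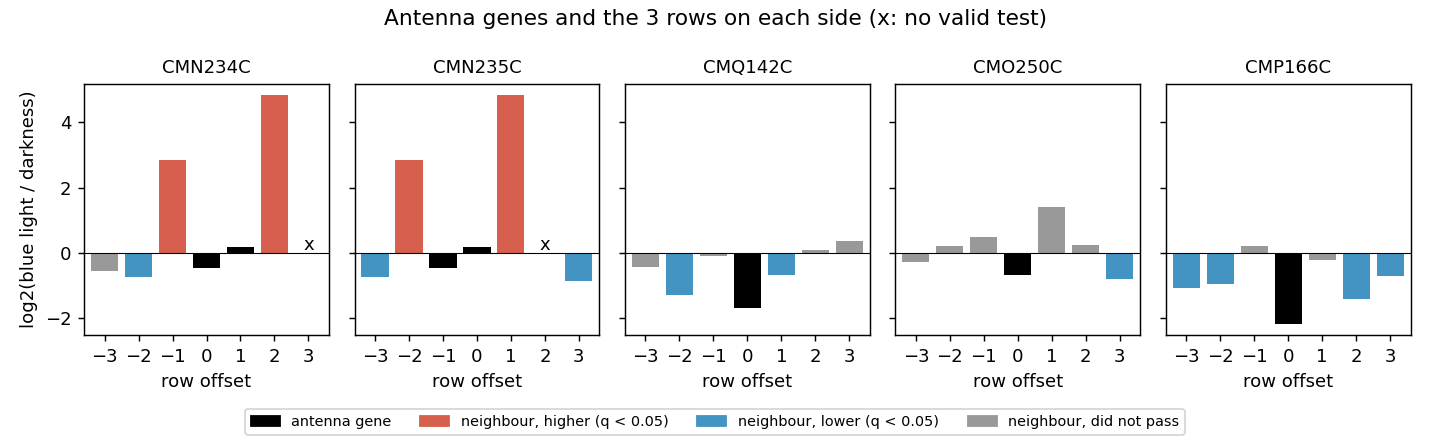
Log2 ratio of blue light over darkness for each antenna gene (black, offset 0) and the 3 rows on each side in order of position, red where the neighbour was higher and blue where it was lower at an authors' q-value under 0.05, grey where it did not pass, and x for a row with no valid test. The 2 red bars, 2.83 and 4.83, stand on either side of the Lhcr pair, whose own bars are -0.46 and 0.18 and both black.

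Other nuclear genes were ordered by distance from the median point of the 5 genes, in the plane of log2(FPKM + 1) in darkness and under blue light. Candidates were 4269 tested nuclear genes at loci of their own. That median point has the values of CMQ142C in both conditions. The nearest genes are therefore those most like CMQ142C, not those most like the set as a whole. The nearest was CMK071C on chromosome 11, at a distance of 0.44, with 5769 FPKM in darkness and 2446 FPKM under blue light. The next was CMT182C on chromosome 20, at 0.52, with 4354 and 2246 FPKM. Both were called lower in the authors' test, with log2 ratios of -1.24 and -0.96 and Cuffdiff q-values of 0.0032 and 0.00039. That their values fell follows from their nearness to CMQ142C and is no separate result. Likeness over 2 conditions rests on level and ratio alone.

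The plastid-encoded partners of these proteins could not be listed by name, since neither the deposited table nor the reference gave gene symbols, and lists of phycobilisome, photosystem and pigment synthesis genes stayed unfilled. Of the 244 rows on the plastid genome 53 were tested, 13 of which were called higher and 5 lower, with a median log2 ratio of 0.35. Among tested nuclear genes 27.1% were called higher and 26.3% lower. Most plastid rows had no valid test, so nothing is read from these counts about the plastid-encoded partners.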

How the data were processed

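RNA of 4 libraries, 2 per condition, was sequenced from TruSeq libraries, per the labels' protocols. Per the submitters' processing notes, the authors used TopHat2 2.0.5 for alignment and Cuffdiff for the comparison. The Cuffdiff version, genome build, annotation and normalization were not given in the sources used here. Deposited were 1 FPKM value per condition, a test statistic (a score) and a p-value and q-value per gene, per the file headers. Coordinates are printed as deposited. The deposited log2 fold change was not used, since some cells hold spreadsheet errors, and ratios were computed from the FPKM values.

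The antenna genes and lists were chosen with earlier results of these data known. Named genes are the 5 antenna genes and the 2 nearest to their median point. Others are marked where they appear. Calls required a valid test status and an authors' q-value under 0.05. The design text speaks of biological duplicates, but the sample labels do not say that cultures were separate; if they were not, p-values cover technical spread between libraries alone.

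Whole-fragment steps were fitted at spans of at least 650 bp. Of values under 10 fragments, 131 in darkness and 114 under blue light, 88.5% and 89.5% were whole within the rounding of the 6 deposited digits. With steps scaled by 1.013 the share was 0. The values checked include the single-fragment values that set the steps, so part of this contrast was fixed by the fit. Those were 19 and 12 for the 2 steps in darkness and 25 and 8 under blue light. For CMQ142C (646 bp) and CMO250C (385 bp) the fit was extended to shorter spans. The fit of the steps and the adjustment of p-values were tested on simulated data. Python 3.11.15, numpy 2.4.6 and pandas 2.3.3 were used. Intervals of fragments cover counting error only.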

Additional observations from a re-analysis of the deposited data

How the results depend on the processing

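All 5 log2 ratios kept their direction and their side of the threshold at a q-value under 0.01, with a pseudocount of 1, with totals made equal and after centring on tested nuclear genes. Equal totals shifted each ratio by -0.0052, and centring subtracted the nuclear median of -0.021, which raised each ratio slightly. The pseudocount and scalings do not change the authors' q-values. The count of called antenna genes was 2 under every other setting tried and 1 with a limit of 2-fold, which CMO250C does not reach by its 1.60-fold fall. The same limit lowered the background from 2377 to 1406 changed nuclear genes and from 1170 to 564 lower ones, because it removes smaller changes. The median log2 ratio of the antenna genes was -1.18 without CMN234C or CMN235C, -1.07 without CMO250C and -0.57 without CMQ142C or CMP166C. The summed level was 1.70-fold lower without CMP166C, an alternative chosen after seeing the data, as were the abundant background and the implied error. The limma comparison of recovered libraries and leaving out single libraries were not run, because each of the 8 values searched, those of all antenna genes but the short CMO250C, allowed between 3 and 170 whole-fragment solutions, so none was unique. No paired analysis was possible because each condition has 1 value without a replicate number. Behind each antenna value stood 614 fragments or more.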

Other observations

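Large implied errors were found for other abundant nuclear genes as well. Of the 92 tested nuclear genes with a mean level of at least 1397 FPKM, 7 had an implied error above 1 on the log2 scale, CMP166C included. Over all tested nuclear genes with an implied error this held for 51 of 4442. A change of at least 2-fold that was not called was found for 7 of the 92 and for 94 of all 4448. Both traits were thus more frequent among the abundant genes. The traits overlap, with CMP166C showing both, so these counts are not separate observations. The only nuclear gene with a larger implied error than CMP166C was CMI049C, on chromosome 9 from 143819 to 145044, named after its values were seen. The authors' deposited table gives it 4974 FPKM in darkness and 10305 FPKM in blue light, with a test statistic of 0.079, an implied error of 13.3 and a Cuffdiff q-value of 0.48. The Cuffdiff p-value was 0.39 for CMI049C and for CMP166C alike, although their test statistics differed. The median implied error of the 92 genes was 0.24, so that most abundant genes had smaller errors than CMN234C and CMQ142C, which ranked 27 and 28 from the largest among them.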
